A study of Mus musculus with 10 samples.

Results

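The proteasome genes were followed through calcineurin deletion in T cell acute lymphoblastic leukemia of the mouse (T-ALL). Members were all genes whose platform symbol starts with Psma, Psmb, Psmc, Psmd, Psme, Psmf or Psmg followed by a number. This took 49 of the 18193 genes with a probe set of their own on the array, and each gene was read from its brightest probe set (by the mean over the 10 arrays). The name holds for 47 of the 49. Psmc3ip, a meiotic recombination factor, and Psme3ip1, a protein that binds Psme3, share the symbol pattern but are not proteasome parts.

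ICN1, an active intracellular NOTCH1, drove the leukemias, and all of them carried the ROSCreERT2 transgene, a tamoxifen-inducible Cre recombinase, and 2 floxed alleles of CnB1. CnB1, now named Ppp3r1, encodes the regulatory subunit of the phosphatase calcineurin, which switches on NFAT transcription factors in T cells. Secondary recipient mice with leukemia received tamoxifen (TAM, 5 arrays), which removes CnB1, or the corn oil carrier alone (OIL, 5 arrays). Leukemic cells, over 50% of the marrow, were sorted by a fluorescent marker. Every group had the replicate labels 204, 206, F3.1, F3.2 and F3, and a final number in the names of F3.1 and F3.2 that differed between the groups was dropped. Each list of 5 values follows that order of labels. No tamoxifen-treated leukemia without floxed alleles was among the samples, so the drug and the deletion cannot be told apart. The sources used here do not give the age and strain of the mice, nor whether each array came from a separate mouse, so the p-values cover the spread between these arrays only, which may be technical.

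The proteasome degrades proteins tagged with ubiquitin. Its 20S core is a stack of rings of alpha subunits, which form the gate, and beta subunits, some of which cut proteins. The 19S cap has a base with ATPases that unfold the substrate and a lid that removes ubiquitin. In lymphoid cells the cutting subunits Psmb5, Psmb6 and Psmb7 can be replaced by the immunoproteasome subunits Psmb8, Psmb9 and Psmb10, which favour peptides for MHC class I. Other members are activators that dock on the core in place of the cap, and chaperones that help to assemble core and cap.

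Promoters of 4 members are shown because these genes carry the largest difference between the groups (Psmd9) and the exchange of cutting subunits (Psmb5, Psmb8 and Psmb9). Each sequence is the 170 bases before the RefSeq transcription start on GRCm38.p6, written along the gene's strand. Capitals mark TGACNNNGC, the core of the antioxidant response element that NRF1 can bind, or GAAANNGAAA, the core of the interferon-stimulated response element.
Psmd9, chr5:123228020-123228189, plus strand: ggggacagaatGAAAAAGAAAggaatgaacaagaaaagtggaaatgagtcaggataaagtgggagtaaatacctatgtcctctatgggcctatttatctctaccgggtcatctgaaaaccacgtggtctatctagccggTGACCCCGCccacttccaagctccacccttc
Psmb5, chr14:54617996-54618165, minus strand: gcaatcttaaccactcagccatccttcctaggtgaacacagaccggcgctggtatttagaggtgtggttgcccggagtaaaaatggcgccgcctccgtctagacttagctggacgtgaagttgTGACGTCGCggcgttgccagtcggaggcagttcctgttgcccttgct
Psmb8, chr17:34198025-34198194, plus strand: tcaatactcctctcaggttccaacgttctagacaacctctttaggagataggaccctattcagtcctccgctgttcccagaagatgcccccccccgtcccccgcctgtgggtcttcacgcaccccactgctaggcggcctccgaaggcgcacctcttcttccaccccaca
Psmb9, chr17:34187331-34187500, minus strand: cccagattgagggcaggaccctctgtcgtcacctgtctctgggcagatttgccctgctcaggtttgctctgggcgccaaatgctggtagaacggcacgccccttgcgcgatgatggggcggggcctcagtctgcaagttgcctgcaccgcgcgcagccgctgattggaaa
Both motifs stand in the Psmd9 stretch, and only the first stands in that of Psmb5. The stretches of Psmb8 and Psmb9 hold neither. Over the 300 bases from 250 before to 50 after the start listed in the RefSeq promoter table, searched on both strands, TGACNNNGC lay in 6 of the 41 members with a listed promoter (14.6%) and in 14.0% of 27025 genes. The 6 were Psmb5, Psmb6, Psmc6, Psmd12, Psmd9 and Psme4. The start listed for Psmb6 lies 33 bases inside the gene's RefSeq span, so that promoter is not shown. Listed starts of some other members lie further inside, by 530 bases for Psmd2, 2889 for Psmf1 and 5340 for Psma3. Both starts of Psme3ip1 do so too (10598 and 236 bases). The shares count these stretches as listed, so not all lie before the gene. GAAANNGAAA lay in 5 of 41 members (12.2%), namely Psmb3, Psmd4, Psmd9, Psme1 and Psmg4, and in 3.99% of all genes. A match of letters is a description and does not show that a factor bound there.

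The deposited values are log2 RMA intensities, on which a difference of 1 is a doubling. The array medians lay between 5.07 and 5.13. A dimmer probe set of Ppp3r1 read 5.32 ± 0.58 in OIL and 3.26 ± 0.21 in TAM (SD, n = 5), with no overlap. A brighter one read 9.80 ± 0.09 and 9.67 ± 0.04 (SD, n = 5). The sources used here do not say where these probe sets lie relative to the deleted part. T cell markers were bright, with a mean over 7 genes of 10.70 to 11.29 in OIL and 10.89 to 11.32 in TAM. Cd4 was the dimmest of them, at 6.32 to 7.94 in OIL and 6.19 to 7.71 in TAM. Myeloid markers averaged 4.86 to 6.49 in OIL and 5.41 to 7.06 in TAM over 8 genes, 2 of them below 4.59. That limit is the mean under which the dimmest 30% of genes were left out of the tests. B cell markers averaged 5.77 to 6.17 in OIL and 5.91 to 5.96 in TAM, with 3 of 5 genes below the limit, and erythroid markers 4.72 to 5.05 and 4.73 to 4.96, with 1 of 4 below it. These means hide differences between genes. Of the B cell markers, Ighm read 11.29 to 12.30 in OIL and 12.02 to 12.41 in TAM, but Pax5 only 5.07 to 5.64 and 4.85 to 5.25. Of the myeloid markers, S100a8 ran from 5.06 to 9.11 in OIL and from 6.55 to 10.07 in TAM, but Csf1r only from 6.16 to 6.37 and 6.10 to 6.42.

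Proteasome transcripts were abundant, and none was called changed after CnB1 deletion. Of the 49 members, 47 passed the filter on dim genes, Psmc3ip and Psme3ip1 among them. Their mean levels ran from 8.16 to 12.37 log2 units with a median of 10.76. By limma with Benjamini-Hochberg adjustment over all 12735 tested genes, 0 of 47 had an adjusted p under 0.05, against 0.471% of all tested genes (60 genes). At an unadjusted p under 0.05 there were 2 members, Psmd9 and Psmc1, both lower in TAM, against 13.0% of all genes. With the replicate label as a block, limma again called 0 of 47, against 3.38% of all genes, and 3 had an unadjusted p under 0.05 (Psmd9, Psmg1 and Psmc1, all lower), against 22.4%. For no member did the OIL and TAM arrays lie apart without overlap, against 3.27% of all genes.

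Member differences were small in both directions. TAM was higher in 21 members and lower in 26, where 59.0% of all genes were lower. Without Psmc3ip and Psme3ip1, 19 of 45 were higher and 26 lower. These directions, and those of the role groups below, hold for the brightest probe sets. Of the 24 members with a second probe set above the dim limit, only 13 had all such probe sets on the same side. The median difference was -0.02 log2 units for members and -0.03 for all genes, and member differences ran from -0.36 (Psmd9) to 0.12 (Psmc4). Lower in TAM in all 5 label pairs were 5 of 47 members, Psmd13, Psmb3, Psmd9, Psmg1 and Psmb8, against 13.5% of all genes. Signs were taken before rounding with no minimum size, and the F3 pair of Psmb3 differed by only -0.0015. Higher in all 5 pairs was Psmc4 alone, 1 of 47, against 8.40%.

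**Figure D1:**
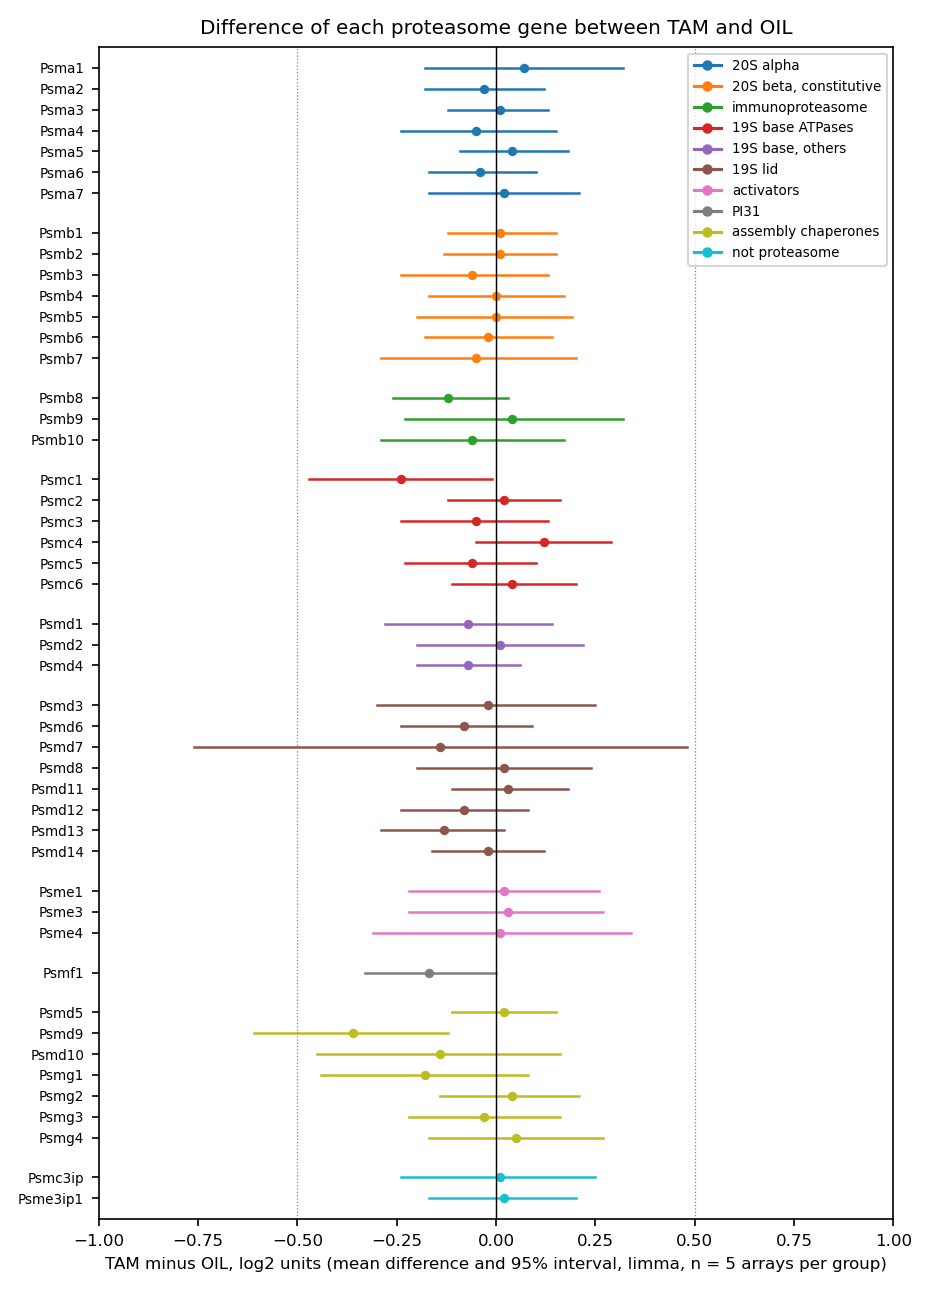
Difference TAM minus OIL in log2 units with the 95% interval from limma for each of the 47 tested members, grouped by role (n = 5 arrays per group). All 14 tested subunits of the 20S core lie within 0.1 of 0, and Psmd9, a chaperone, lies lowest at -0.36.

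The arrays were precise enough to bound most of these differences. The 95% interval of the difference lay within ±0.25 log2 units, a 1.19-fold change, for 27 of 47 members (57.4%), against 20.7% of all tested genes and 25.5% of the 4816 genes with a mean of at least 8.16, the level of the dimmest tested member. Within ±0.5, a 1.41-fold change, lay the intervals of 45 of 47 members (95.7%), against 74.5% of all genes and 77.8% of those 4816. These 4816 share a lower limit with the members but were not matched to them in level. The exceptions were Psmd7 (-0.76 to 0.48) and Psmd9 (-0.61 to -0.12). From the lowest to the highest of the 10 arrays, members spanned a median of 0.37 log2 units, and all tested genes 0.56.

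Differences in the 20S core, read from the brightest probe sets, were small. Of its 14 tested constitutive subunits, 6 were higher and 8 lower, 0 passed the test, and the median difference was 0.00 with a range of -0.06 to 0.07. The alpha ring, which holds the gate, had 4 of 7 tested subunits higher. Psma1 had the largest positive difference of the ring. It read 11.45, 11.54, 11.17, 11.25 and 11.46 in OIL and 11.64, 11.55, 11.37, 11.12 and 11.54 in TAM. The groups overlapped throughout (difference 0.07, SE 0.11). A much dimmer probe set of Psma1 (mean 5.54) gave 0.40, higher in TAM in all 5 pairs, and another (mean 4.86) gave 0.04. For Psma3, at 0.01, a much dimmer probe set (mean 5.81) gave 0.23, also higher in all 5 pairs. Psma4 had the most negative one, with 12.25, 12.30, 12.13, 12.05 and 12.27 in OIL and 12.24, 12.20, 12.04, 11.96 and 12.34 in TAM. Here too the groups overlapped, and the F3.2 array was the lowest of each (difference -0.05, SE 0.09).

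The beta ring, which carries the cutting sites, had 2 of 7 constitutive subunits higher and 5 lower. Psmb1, with the largest positive difference, read 11.22, 11.19, 11.08, 11.08 and 11.19 in OIL and 11.13, 11.18, 11.17, 11.08 and 11.27 in TAM. The groups covered nearly the same range, and the difference was 0.01. Psmb3, a non-catalytic subunit, read 11.40, 11.44, 11.63, 11.69 and 11.61 in OIL and 11.39, 11.36, 11.60, 11.54 and 11.61 in TAM. Its arrays labelled 204 and 206 were lower than the F3 family in both groups, and the difference was -0.06 (SE 0.08). The catalytic subunits Psmb5, Psmb6 and Psmb7 differed by 0.00, -0.02 and -0.05.

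Of the 17 subunits of the 19S cap, 6 were higher, 11 lower and 0 called, with a median difference of -0.05 and a range of -0.24 to 0.12. The 6 ATPases of the base divided evenly, 3 higher and 3 lower. Psmc1 (Rpt2) read 10.24, 10.36, 10.28, 10.30 and 10.38 in OIL and 10.29, 10.15, 9.91, 9.76 and 10.23 in TAM. The TAM F3.1 and F3.2 arrays lay below all others, while TAM 204 lay among the OIL arrays. The difference was -0.24 (SE 0.10, 1.18-fold lower, limma adjusted p = 0.356, 0.175 with the block). Psmc4 (Rpt3) read 10.27, 10.60, 10.37, 10.42 and 10.53 in OIL and 10.61, 10.66, 10.47, 10.48 and 10.59 in TAM. It was higher in TAM in each label pair, most so for 204, yet the groups overlapped (difference 0.12, SE 0.08, limma adjusted p = 0.557). A second probe set of Psmc4 gave 0.04.

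The non-ATPase subunits of the base were the scaffolds Psmd1 and Psmd2 and the ubiquitin receptor Psmd4. Psmd2 read 10.49, 10.76, 10.85, 10.84 and 10.56 in OIL and 10.63, 10.66, 10.94, 10.71 and 10.62 in TAM, a difference of 0.01. Its F3.1 and F3.2 arrays were high in OIL, and F3.1 was the highest of TAM. Psmd1 read 10.51, 10.87, 10.73, 10.77 and 10.70 in OIL and 10.76, 10.74, 10.70, 10.38 and 10.65 in TAM, a difference of -0.07. Its lowest value was that of TAM F3.2, and the remaining TAM arrays lay within the OIL range. Psmd4 also differed by -0.07.

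Of the 8 tested lid subunits, 2 were higher and 6 lower, with a median of -0.05. Psmd11, a structural subunit, read 11.09, 11.18, 11.09, 11.17 and 11.20 in OIL and 11.18, 11.14, 11.11, 11.13 and 11.34 in TAM. Only TAM F3 stood above the OIL range, and the difference was 0.03, but an almost equally bright second probe set gave -0.09. Psmd13, another structural subunit, averaged 9.50 ± 0.08 in OIL and 9.37 ± 0.11 in TAM (SD, n = 5). It differed by -0.13 and was lower in TAM in all 5 pairs. Its other probe sets gave -0.29 to -0.11, and limma did not call it (adjusted p = 0.477). Psmd14, the deubiquitinase of the lid, differed by -0.02.

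Psmd7 (Rpn8), the structural partner of Psmd14, had values that went with the replicate label. It read 9.57, 9.68, 8.93, 8.93 and 9.48 in OIL and 9.67, 9.61, 8.83, 8.28 and 9.50 in TAM. In both groups the F3.1 and F3.2 arrays were lower than the arrays of the other labels. The TAM difference was -0.14 (SE 0.28, limma adjusted p = 0.880), and without the TAM F3.2 array its sign changed. The label term of the limma fit with treatment and label had an adjusted p of 0.0239, the single call among 47 members (label means 9.62, 9.64, 8.88, 8.61 and 9.49), against 10.6% of all tested genes. A dimmer probe set of Psmd7 read 6.56 to 6.86 over all 10 arrays. The mean over its probe sets gave no label call (limma adjusted p = 0.143). The F3.1 and F3.2 arrays also had the highest 3' minus 5' signal of beta-actin, a measure of RNA integrity and labelling, at 0.49 to 0.70 against 0.34 to 0.43 on the other arrays. For Gapdh it was 0.21 to 0.33 against -0.04 to 0.06. Their part in the Psmd7 values was not tested.

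The immunoproteasome subunits were expressed in every array. Of the 3 tested, 1 was higher, 2 lower and 0 called, with a median of -0.06. Psmb8 (beta5i) read 11.81, 11.81, 11.69, 11.65 and 11.80 in OIL and 11.63, 11.55, 11.67, 11.59 and 11.75 in TAM. It was lower in TAM in each of the 5 pairs, by 0.25 at most, and the groups overlapped. The means were 11.75 ± 0.08 and 11.64 ± 0.08 (SD, n = 5), a difference of -0.12 with a 95% interval of -0.26 to 0.03 (limma adjusted p = 0.50). A much dimmer probe set of Psmb8 (mean 6.29) gave -0.05 and was lower in TAM in only 2 of 5 pairs.

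Psmb9 (beta1i) read 10.70, 10.59, 10.38, 10.30 and 10.23 in OIL and 10.79, 10.47, 10.59, 10.31 and 10.28 in TAM. The label order was almost the same in both groups, with 204 highest and F3 lowest, and the difference was 0.04 (interval -0.23 to 0.32). Psmb10 (beta2i) read 10.65, 10.66, 10.53, 10.54 and 10.82 in OIL and 10.42, 10.34, 10.71, 10.59 and 10.83 in TAM. Labels 204 and 206 were lower in TAM and the others were not, for a difference of -0.06 (interval -0.29 to 0.17). Psmb11 (beta5t), the subunit of thymic cortical epithelium, read 3.71, 4.24, 4.52, 4.41 and 3.92 in OIL and 3.87, 3.99, 4.08, 4.20 and 3.83 in TAM. All 10 values lay under the limit for dim genes, so it was not tested.

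Each immunoproteasome subunit was then set against the constitutive subunit it replaces, within each array. Psmb8 minus Psmb5 went from 0.71 ± 0.16 in OIL to 0.60 ± 0.07 in TAM (SD, n = 5), lower in 4 of 5 pairs. Psmb9 minus Psmb6 was -0.60 ± 0.21 and -0.54 ± 0.19, and Psmb10 minus Psmb7 was -0.19 ± 0.29 and -0.21 ± 0.26 (SD, n = 5). The changes, -0.11, 0.07 and -0.01, were each smaller than the SD within OIL. Because different probe sets have different brightness, only the change between groups can be read, not which subunit prevailed.

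**Figure D2:**
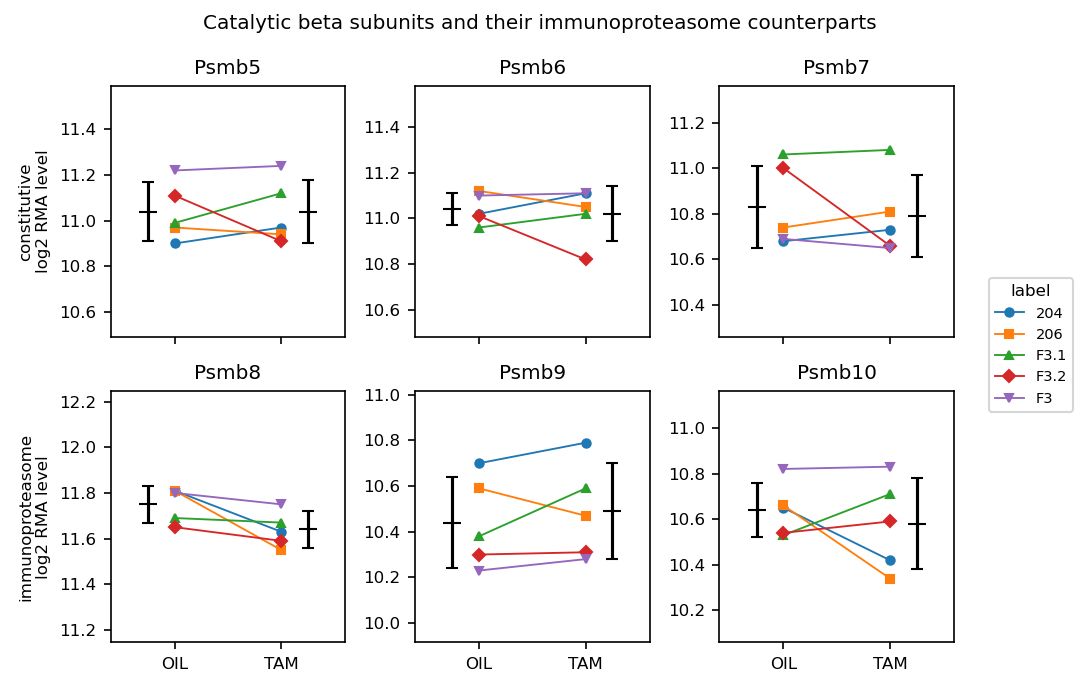
Log2 RMA level of the constitutive cutting subunits (upper panels) and of the immunoproteasome subunits that replace them (lower panels), with a line for each replicate label from OIL to TAM and black bars for mean ± SD (n = 5). Psmb8 slopes downward for all 5 labels, by 0.25 at most, while the lines of Psmb5, Psmb9 and Psmb10 run in both directions.

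Of the 3 activators, read from their brightest probe sets, all were slightly higher in TAM, by 0.01 to 0.03, and 0 were called. Psme1, a subunit of PA28 that opens the core gate, read 11.60, 11.52, 11.23, 11.35 and 11.76 in OIL and 11.54, 11.50, 11.41, 11.37 and 11.72 in TAM. Label F3 was highest and F3.1 or F3.2 lowest in both groups, and the difference was 0.02 (limma adjusted p = 0.973). The probe set for its partner Psme2 is shared with the copy Psme2b, so it named neither gene. That set averaged 11.03 ± 0.16 in OIL against 11.15 ± 0.20 in TAM (SD, n = 5).

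Psme3, the nuclear PA28 gamma, read 8.01, 8.31, 8.10, 8.19 and 8.12 in OIL and 8.10, 8.25, 8.20, 7.84 and 8.47 in TAM. Both the lowest and the highest values were TAM arrays, and the difference was 0.03 (limma adjusted p = 0.953). Psme4, the large single-chain activator PA200, read 9.72, 9.97, 10.39, 10.18 and 10.42 in OIL and 9.89, 10.02, 10.17, 10.41 and 10.27 in TAM. Labels 204 and 206 were lowest in both groups, and the difference was 0.01 (limma adjusted p = 0.982). Its next brightest probe sets (means 9.88 and 8.21) gave -0.05 and -0.03. Much dimmer ones above the dim limit (means 5.11 and 4.62) gave 0.40 and 0.22, so its direction depended on the probe set. Psmf1 (PI31), which binds the core and can inhibit it in the test tube, read 8.46, 8.59, 8.51, 8.58 and 8.57 in OIL and 8.49, 8.41, 8.43, 8.13 and 8.42 in TAM. TAM F3.2 was far below the rest and TAM 204 lay within the OIL range (difference -0.17, limma adjusted p = 0.393). Its other probe sets gave -0.09 to 0.21.

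Assembly chaperones held the member with the smallest p. Of 7, 3 were higher, 4 lower and 0 called, with a median of -0.03. Psmd9 (p27), which helps to assemble the ATPase ring, read 8.26, 8.42, 8.69, 8.80 and 8.75 in OIL and 8.19, 8.22, 8.11, 8.21 and 8.37 in TAM. The TAM arrays lay close together, and OIL 204 lay among them while the 4 other OIL arrays lay above. The means were 8.58 ± 0.23 and 8.22 ± 0.10 (SD, n = 5), a difference of -0.36 (SE 0.11, 1.29-fold lower, 5 of 5 pairs). The limma p of 0.00757 became 0.210 after adjustment, and 0.0801 with the block. A dimmer probe set (mean 6.09) gave -0.35 and was lower in TAM in 4 of 5 pairs. On it the OIL F3.1 and F3.2 arrays read 6.69 and 7.03. The other OIL arrays read 5.65 to 5.98 and the TAM arrays 5.84 to 6.07. Another probe set, with a mean of 4.34 under the limit for dim genes, gave -0.08.

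Psmg1 (PAC1), a chaperone of the alpha ring, read 10.26, 10.47, 10.01, 10.06 and 9.95 in OIL and 10.11, 10.19, 9.89, 9.79 and 9.85 in TAM. It was lower in TAM in all 5 pairs, but labels 204 and 206 of TAM lay within the OIL range (difference -0.18, limma adjusted p = 0.571, 0.135 with the block). Psmg4 (PAC4) had the largest positive difference of the chaperones. It read 9.24, 9.24, 9.03, 9.19 and 8.97 in OIL and 9.28, 9.32, 9.22, 8.87 and 9.22 in TAM. TAM was higher for 4 labels and lower for F3.2, a difference of 0.05.

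One array stood furthest from the others in these genes. TAM F3.2 was the lowest of the 10 arrays in 25 of 47 members (53.2%), against 16.0% of all tested genes and 21.6% of those with a mean of at least 8.16, and it was the highest in 0. Psmc3ip and Psme3ip1, which are not proteasome parts, were among the 25. Its median deviation from the OIL means was -0.17 over all members, -0.12 over the 20S core, -0.19 over the 19S cap and -0.26 over the chaperones. On the other arrays the member median lay between -0.06 and 0.06. Without this array 29 members were higher and 18 lower, with a median of 0.01 and 0 called by limma. On TAM F3.2 the 3' minus 5' signal was the highest of all arrays, at 0.70 for beta-actin and 0.33 for Gapdh. Its T cell markers averaged 11.32, its myeloid markers 6.32, its B cell markers 5.91 and its erythroid markers 4.73. The part of these in its low member values was not tested. Among further member probe sets, those as bright as the chosen ones were lowest on TAM F3.2 in 8 of 17, while dimmer ones were lowest in 2 of 24 and highest in 7 (29.2%). Of all probe sets in that dim range, 13.7% were lowest and 14.6% highest on this array.

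**Figure D3:**
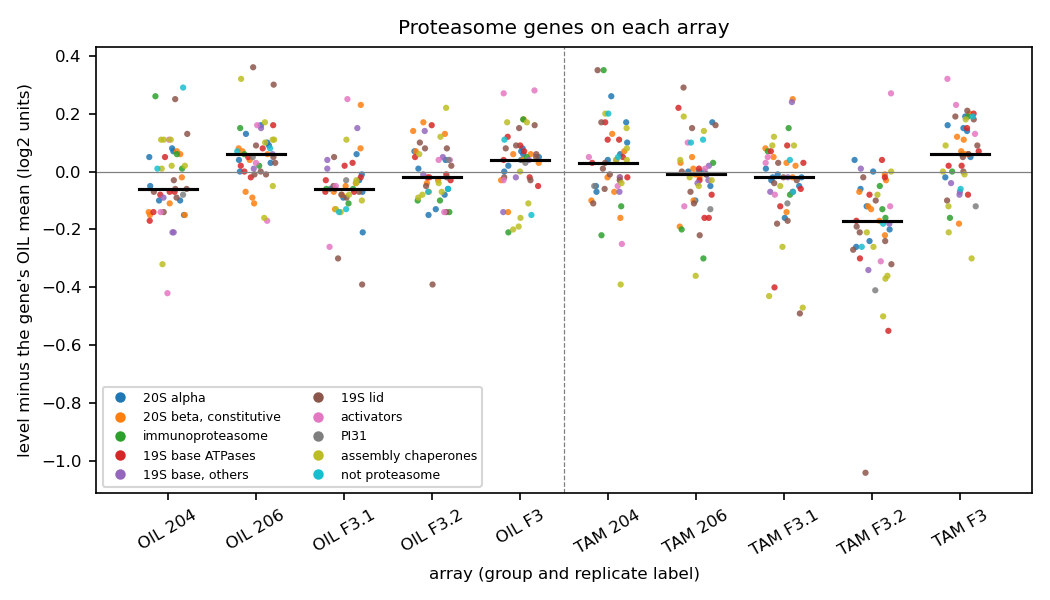
Deviation of each tested member from its OIL mean in log2 units on each of the 10 arrays, with points coloured by role and a black line at the median. Points of TAM F3.2 lie mostly below 0, with a median of -0.17, while the medians of the other arrays lie between -0.06 and 0.06.

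The label pairs also differed. The median TAM minus OIL difference over the members was 0.06 for label 204 and -0.07 for label 206. It was 0.03 in both the F3.1 and the F3 pair, and -0.16 in the F3.2 pair. Members lower in TAM numbered 11, 37, 20, 40 and 15 of 47 in the pairs (204, 206, F3.1, F3.2, F3), where 55.4%, 54.6%, 51.3%, 59.8% and 53.4% of all genes were lower. Of the genes with a mean of at least 8.16, 44.7%, 56.0%, 48.1%, 56.3% and 52.9% were lower. The direction of the family as a whole thus varied from pair to pair. The share among these brighter genes varied too, over a narrower range.

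Psma8, the alpha4-type subunit of the germ line, was seen in 1 leukemia label. It read 5.76, 3.74, 3.68, 3.87 and 3.64 in OIL and 6.28, 3.65, 3.68, 3.78 and 3.52 in TAM. Both arrays of label 204 lay above the limit of 4.59, and the 8 others lay below it. Its mean over all arrays kept it out of the main test. In the limma fit without the filter the label term had an adjusted p of 0.000505, where 7.89% of 18193 genes were called. Its somatic counterpart Psma7 averaged 10.82 in OIL and 10.84 in TAM.

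**Figure D4:**
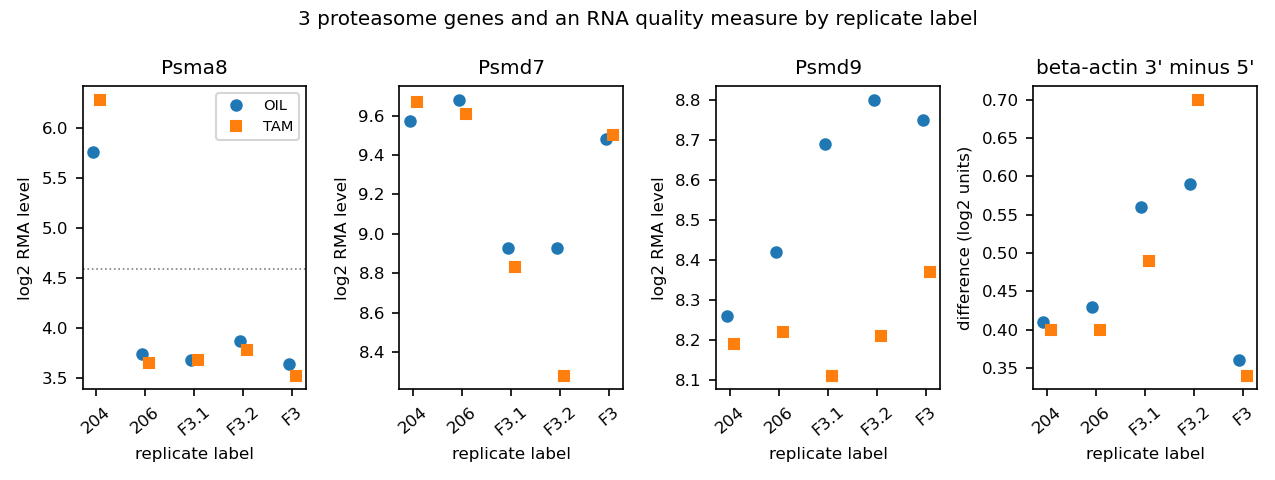
Values by replicate label in OIL and TAM for Psmd7, Psma8 and Psmd9 (log2 RMA level) and for the beta-actin 3' minus 5' signal. Psmd7 is low and the beta-actin signal high on the F3.1 and F3.2 arrays, and Psma8 passes the dotted limit of 4.59 on the 204 arrays only.

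Genes that work with the proteasome but lie outside the symbol rule were read from the same fit. Of 8 partner proteins 0 were called, with a median of 0.03. The largest positive difference was 0.18 for Akirin2, which carries proteasomes into the nucleus, and the most negative -0.17 for the adaptor Ecpas, whose second probe set gave -0.01. Usp14, a deubiquitinase on the cap, differed by 0.11 and had a label call (limma adjusted p = 0.0244). Of 11 tested genes of the NRF1 pathway, which induces proteasome genes when the proteasome fails, and of ubiquitin shuttling, 0 were called. They ran from -0.16 for Nploc4, a p97 cofactor, to 0.20 for Syvn1, a ligase of the endoplasmic reticulum, and Nfe2l1, which encodes NRF1, differed by 0.15. Of 13 genes of ubiquitin supply and conjugation 0 were called. The ubiquitin-activating enzyme Uba6 was at 0.31 and the ligase scaffold Cul1 at -0.27. Other probe sets of Uba6 gave 0.33, 0.20, 0.14 and -0.37, the last at a mean of 5.06 log2 units.

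Of the 11 MHC class I genes, which handle the peptides that the proteasome makes, 0 were called without the block and 2 with it, against 0.471% and 3.38% of all genes. Psmb9, Tap1, Psmb8 and Tap2 are neighbours in that order in RefSeq. Tap2, a subunit of the peptide transporter, read 10.02, 9.83, 9.93, 9.94 and 10.24 in OIL and 9.51, 8.98, 9.04, 9.72 and 9.66 in TAM. Every TAM array lay below every OIL array. The difference was -0.61 (SE 0.16, 1.52-fold lower, limma adjusted p = 0.135, 0.0293 with the block). Tap1, the other transporter subunit, differed by -0.06.

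Tapbp (tapasin), which bridges the transporter and MHC class I, read 9.58, 9.42, 9.63, 9.66 and 9.88 in OIL and 9.80, 9.86, 10.34, 10.19 and 10.37 in TAM. It was higher in TAM in all 5 pairs, and labels 204 and 206 of TAM lay within the OIL range. The difference was 0.48 (SE 0.13, 1.39-fold higher, limma adjusted p = 0.161, 0.0252 with the block). A dimmer probe set gave 0.24.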

How the data were processed

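RNA of the sorted cells (200 ng per labelling) was read on 10 oligonucleotide arrays. Per the submitters' processing notes the authors used RMA, whose version the sources used here do not give, and the deposited values are on the log2 scale. RMA normalizes arrays by quantiles, so shifts common to all genes are removed. Arrays have no read depth, and their number limits the precision.

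The deposited values covered 45101 probe sets (1.74 to 14.02): 34958 had 1 symbol in the platform annotation, 932 several and 9211 none. Entrez IDs of 34754 matched RefSeq (GRCm38.p6), used for names and promoters. Probe sets with several symbols named no gene. The dimmest 30% of 18193 genes were left out, which left 12735.

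TAM and OIL were compared in R 4.3.3 (files read by data.table, version 1.17.8) by lmFit and eBayes of limma 3.58.1, with 8 residual degrees of freedom, calling genes at adjusted p under 0.05 (Benjamini-Hochberg). The label as block left 4. Labels come from the sample names. Same-label arrays deviated together (r over genes of 0.76, 0.75, 0.58, 0.18 and 0.80 in the order 204, 206, F3.1, F3.2, F3, limit 0.1), but 3 arrays correlated best with another label, so the pairing is least certain for F3.1 and F3.2. Label differences were tested by limma's moderated F. The fit was tested on simulated data. The members and gene lists were chosen with earlier results of these data known, so no list was tested as a set.

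Values per array are given for immunoproteasome subunits, activators, called members and the largest positive and negative difference of each other role. Psma8 was added after its values were seen, and so were Psmd13, Psmg1 and further members given by their difference. Of the partner lists, called genes or the extremes are named; Usp14, Nfe2l1 and Tap1 were added after their values were seen. Alternatives were the block, label families, other filters, centring, a further quantile normalization, other choices of probe set, eBayes with trend and robust, and leaving out each array.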

Additional observations from a re-analysis of the deposited data

Results flagged for a closer look

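In 98 sets of 5 arrays (49 members in OIL and in TAM), 6 held an array far from the other 4, with a gap to its nearest neighbour above 0.71 of the set's whole range. Chance gives about 1 set in 20. Psma8 read 5.76 on OIL 204, with the next value at 3.87, and 6.28 on TAM 204, with the next at 3.78. On TAM F3.2, Psmd1 read 10.38 (next 10.65), Psmf1 8.13 (next 8.41) and Psmg4 8.87 (next 9.22). Psmd2 read 10.94 on TAM F3.1, with the next TAM value at 10.71.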

How the results depend on the processing

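No proteasome member was called in TAM against OIL in any of the 20 alternative settings. The adjusted p of Psmd9 ran from 0.0801 to 0.642 over them and its difference from -0.44 to -0.26. The member median ran from -0.04 to 0.01 as each array was left out. The number of all genes called, 60, was 431 with the replicate block, 227 with a replicate block of 3 label families, 26 with the mean of all probe sets and 25 with the probe set of largest variance. It was 10 with OIL F3.1 and OIL F3.2 averaged, a setting chosen after seeing the data. It was 8 to 54 as each array was left out: of the OIL arrays, leaving out F3.1 gave 8, F3.2 gave 10 and 204 gave 19, and of the TAM arrays, F3.1 gave 24, 206 gave 28 and 204 gave 36. The replicate block changed the call of no member; of the partner genes it changed those of Tap2 and Tapbp. Members with a label call, 1, became 2 without the filter on dim genes (Psma8 and Psmd7) and also 2 where a gene's probe sets were averaged (Psmd3 and Psmg1, adjusted p = 0.0429 and 0.0447, without Psmd7), where 12.3% of all genes were called; the cause was not tested. With the probe set of largest variance, Psmf1 was at 0.21 and Psma1, the largest member difference, at 0.40. Genes near the dim limit, such as Psmb11, have values close to background.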

Other observations

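Further genes of MHC class I control and ubiquitin conjugation had small p-values that did not survive adjustment. Irf1, an interferon-responsive transcription factor that can induce immunoproteasome genes, was at 0.36 (limma adjusted p = 0.196, 0.0644 with the block), and Ube2d1, a ubiquitin-conjugating enzyme, at 0.27 (limma adjusted p = 0.131, 0.0644 with the block). Between the replicate labels, limma called the ubiquitin-activating enzyme Uba6 (adjusted p = 0.0227) and Ube2c, the conjugating enzyme of the anaphase-promoting complex (adjusted p = 0.00848), where 10.6% of all tested genes were called. These genes were named after their values were seen.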
